A study of Arabidopsis thaliana with 12 samples.

Results

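The glk1 glk2 mutant of Arabidopsis thaliana lacks function of GLK1 and GLK2, and its seedling transcriptome was set against that of wild type across all measured genes. The comparison used 8 of the 12 arrays of the study: 4 arrays titled glk1_glk2 and 4 titled Wild_type, chosen by title. Both groups were of the Columbia-0 ecotype. Many whole seedlings, 2 weeks old, were harvested for each sample after growth on MS agar with 1% sucrose at 23 °C, in 16 h of light and 8 h of dark, with no treatment. Total RNA, 1 µg per sample, received the Cy3 dye and was hybridised to a one-colour Agilent array. The alleles of GLK1 and GLK2 are not given in the sources used here, and each group is 1 genotype. The other 4 arrays, of seedlings carrying GLK1-SRDX, entered the fit only through its estimate of the spread. The labels do not say that same-genotype samples came from separate cultures, so p-values rest on the differences among these samples alone, and these may be technical in part.

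GLK1 and GLK2 are related transcription factors of the GARP family that act in overlapping ways. They switch on nuclear genes for chlorophyll synthesis and light harvesting while chloroplasts develop, and plants without both are pale green. Most chloroplast proteins are encoded in the nucleus, made in the cytosol and imported through complexes of the envelope, and many carry iron, copper or magnesium in a pigment or cofactor.

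A level is given as log2 of the processed intensity relative to the 75th percentile of its array, so that a level of 0 is the intensity of that percentile. A locus passed where the limma adjusted p was under 0.05, and the words rose, fell and changed are used of such loci. On the 12 arrays the 75th percentile was 1562 to 2542 intensity units, 64.1% to 68.7% of spots were well above background and 0 spots were saturated. Precision is limited by how many arrays there were, and log2 fold changes had a median standard error (SE) of 0.144. Same-numbered glk1 glk2 and wild-type arrays deviated together. Replicates 1 and 2 of both groups lay on slide 1, and replicates 3 and 4 on slide 2. One array stood apart: without glk1 glk2 replicate 3 the count of changed loci was 3177, against 671 with it.

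The targeted genes were examined first. GLK2 (AT5G44190) had log2 levels of -5.47, -5.51, -5.34 and -4.78 on the 4 glk1 glk2 arrays, against 2.47, 2.09, 1.85 and 2.54 on the 4 wild-type arrays. GLK1 (AT2G20570) had -1.97, -2.41, -2.86 and -1.30 in glk1 glk2, against 0.01, 0.04, -0.15 and 0.48 in wild type. Every mutant array was below every wild-type array for both genes. GLK2 fell 183-fold (log2 fold change -7.51 ± 0.19 SE, limma adjusted p = 4.70e-09) and GLK1 fell 4.68-fold (-2.23 ± 0.28 SE, limma adjusted p = 0.00296). Both probes were well above background on all 4 mutant arrays, and whether they lie in the disrupted part of the genes is not known here. Of the 20 tested loci that flank GLK2, 10 on each side, 0 passed, with log2 fold changes of -0.68 to 0.59. Of the 20 that flank GLK1, 3 rose and 0 fell (NOP10, PHB6 and NFD6, in a range of -1.65 to 0.50). Among all tested loci 2.14% rose, and the cause of these 3 rises was not tested.

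With all 12 arrays in the fit the falls were fewer and larger and the rises more numerous and smaller, but which direction had more loci depended on the arrays and the model. Of 20640 tested loci 671 changed in glk1 glk2 (3.25%), of which 441 rose (2.14%) and 230 fell (1.11%). Counts for the lists below are to be read beside these shares of all tested loci. The median rise was 1.39-fold and the median fall 2.05-fold. Of the rises 427 were under 2-fold, 12 were of 2- to 4-fold, 1 of 4- to 8-fold and 1 of 8-fold or more. Of the falls 112 were under 2-fold, 66 were of 2- to 4-fold, 29 of 4- to 8-fold and 23 of 8-fold or more. Changes of at least 2-fold numbered 132 (0.64%), with 14 rises and 118 falls.

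**Figure D1:**
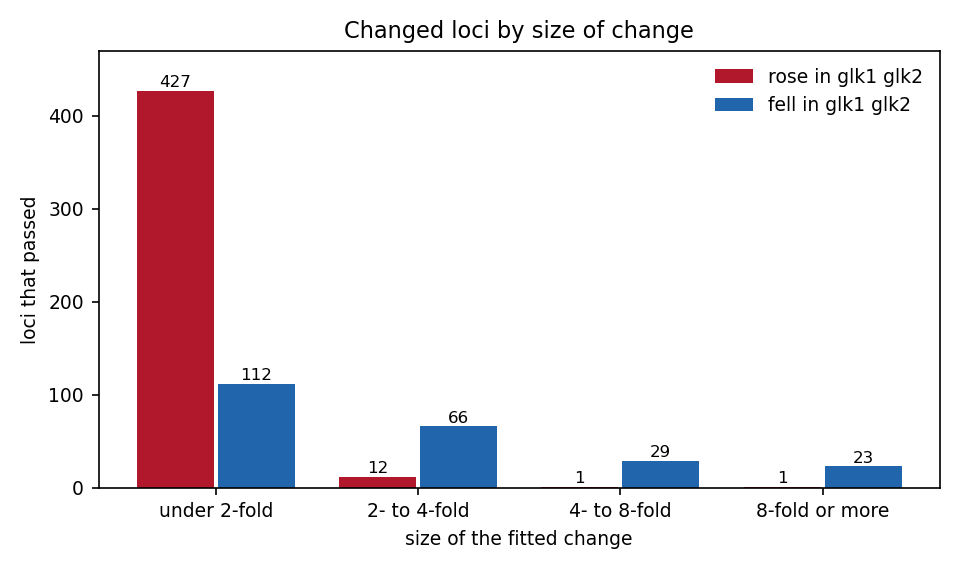
Loci that passed the limma threshold, counted by the size of the fitted change on the x axis, with rises in glk1 glk2 (red) left of falls (blue). Rises are concentrated under 2-fold (427 of 441), and from 2-fold upward the falls outnumber the rises.

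Of the 671 changed loci 667 had no overlap between the 4 mutant and the 4 wild-type arrays, as did 9.66% of all tested loci. For 669 of the 671 the direction was the same in all 4 same-numbered pairs. A lack of overlap already fixes this for the 667, so the pairs add no separate support. With the replicate number as a block, 1365 loci changed (6.61%), 896 upward (4.34%) and 469 downward (2.27%), and 517 of the 671 were among them. The count of 671 was 286 and 326 without glk1 glk2 replicates 1 and 2, 229, 267 and 354 without wild-type replicates 1, 2 and 4, and 407 without GLK1-SRDX replicate 2. With slide as a block 64 loci changed, and within slide 1 and slide 2, with 2 arrays a group, 20 and 0 did by limma's adjusted p, with 4936 and 298 at an unadjusted p under 0.05. None of the 143 named genes had the opposite sign within either slide. Most of them were chosen for passing on these same arrays, and a lack of overlap fixes the sign on both slides. The shared sign is therefore no separate support. Falls outnumbered rises without glk1 glk2 replicate 3 (1378 rose and 1799 fell), without wild-type replicate 1 (112 and 117), with only the 2 groups in the fit (36 and 75) and with slide as a block (18 and 46). They also did within slide 1 (0 and 20) and with the authors' series table (4 and 132). The same held without both arrays of replicate number 1 (9 and 45), 2 (31 and 70) or 4 (112 and 113). The share of rises also depended on how arrays were scaled. Rises made up 65.7% of changed loci here, 91.5% when each array was centred on its median and 2.94% with the values of the authors' series table. The median log2 fold change of all loci was 0.00067 in the scaling used here, 0.196 with median centring and -0.186 with the series table. The count of rises therefore refers to the 75th percentile of the arrays. On the 5 nuclear chromosomes 1.92% to 2.41% of tested loci rose and 1.05% to 1.18% fell.

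**Figure D2:**
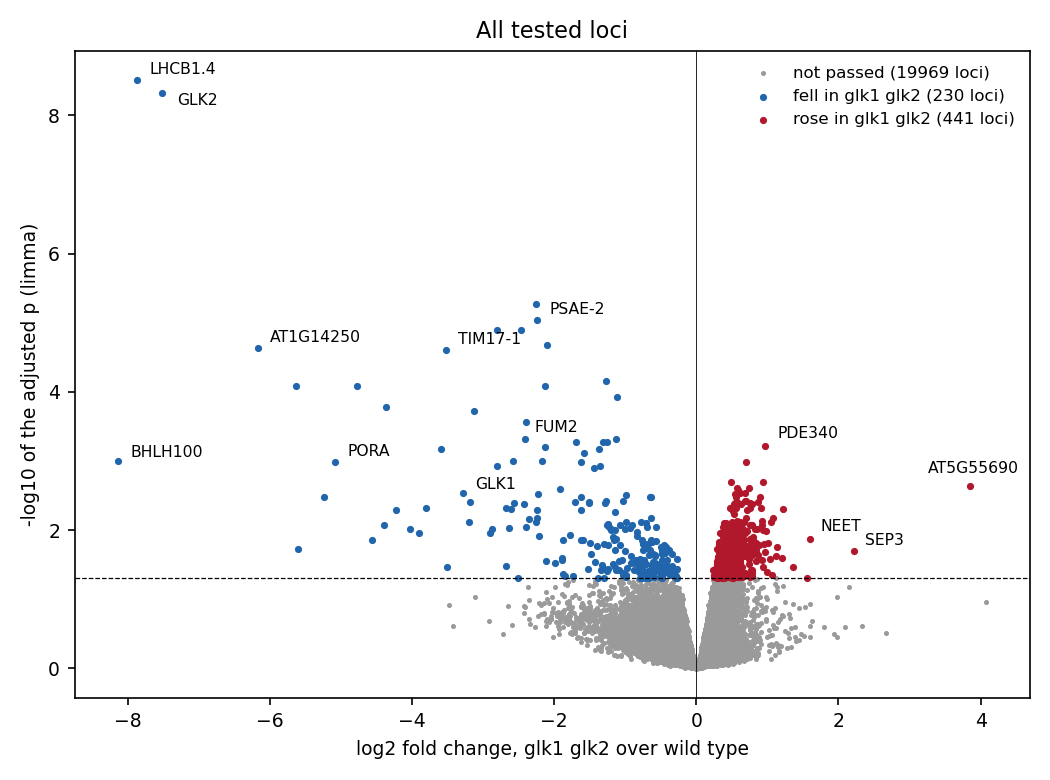
Each point is 1 tested locus, with the log2 fold change of glk1 glk2 over wild type on the x axis and -log10 of the limma adjusted p on the y axis. The dashed line marks the threshold of 0.05. The fitted falls reach -8.14 (BHLH100, not well above background on any mutant array). The fitted rises reach 3.84 (AT5G55690, not well above background on any wild-type array), and most rises lie between 0 and 1.

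The largest falls included genes of iron uptake, light harvesting, chlorophyll synthesis and anthocyanin synthesis. Among loci with a symbol, BHLH100, LHCB1.4 and GLK2 were followed in fitted size by PORA, UNE15, IRT1, BHLH38, MES18, ZIP8, FRO2, NAS2, DFR, BBX16, TIM17-1 and CYP82C4. UNE15 (AT4G13560) was well above background on 2 of 4 mutant arrays and had a fitted fall of 27.3-fold (limma adjusted p = 8.33e-05). MES18 (AT5G58310), of a family of methylesterases, was well above background on 0 mutant arrays and on all 4 wild-type arrays, and fell at least 7.23-fold (limma adjusted p = 0.000164). BBX16 (AT1G73870), a B-box transcription factor, had log2 levels of -2.25, -2.87, -3.45 and -1.88 in glk1 glk2, against 1.1, 0.55, 0.43 and 1.8 in wild type. Its groups were apart by more than 2 log2 units, and it fell 12-fold (-3.59 ± 0.36 SE, limma adjusted p = 0.000677). In all, 30 of the 230 falls were not well above background on every mutant array, and 5 were above it on 0 mutant and 4 wild-type arrays (BHLH100, MES18, CYP82C4, LDOX and AT3G16120).

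The antenna proteins, which bind chlorophyll and pass light energy to the photosystems, fell as a family but by very unequal amounts. Of 20 tested antenna genes 16 fell and 0 rose, with a median log2 fold change of -0.83. LHCB1.4 (AT2G34430) had log2 levels of -0.60, -0.16, 0.28 and -0.61 in glk1 glk2, against 7.38, 7.77, 7.55 and 7.70 in wild type. The mutant arrays thus lay more than 7 log2 units below every wild-type array (-7.87 ± 0.18 SE, 234-fold, limma adjusted p = 3.09e-09). Its neighbour in the genome, LHCB1.5 (AT2G34420), had 6.85, 7.08, 6.47 and 6.97 in glk1 glk2, against 7.30, 7.82, 7.59 and 7.68 in wild type, a fall of 1.68-fold (limma adjusted p = 0.0194). LHCB1.2 fell 1.73-fold (limma adjusted p = 0.0262), and LHCB1.1 and LHCB1.3 did not pass (log2 fold changes of -0.25 and -0.37). The LHCB1 genes are near-identical copies, so what each probe reads is uncertain.

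Closely related antenna genes of photosystem II also differed in the size of their fall. LHCB4.2 fell 4.76-fold (-2.25 ± 0.11 SE, limma adjusted p = 5.27e-06), while its paralog LHCB4.1 fell 1.44-fold (limma adjusted p = 0.0387). LHCB3 fell 4.39-fold and LHCB6 fell 2.05-fold (limma adjusted p = 0.00062 and 0.00385). LHCB2.3, LHCB2.2 and LHCB2.1, also close copies, had log2 fold changes of -2.68, -2.51 and -2.14. LHCB2.3 and LHCB2.2 fell (limma adjusted p = 0.0328 and 0.0486), with calls kept in 5 and 3 of 12 fits with 1 array left out, and LHCB2.1 passed only with the replicate block (limma adjusted p = 0.028, and 0.112 without it). For LHCB2.3 the 4 same-numbered pairs differed by -2.62, -2.54, -2.66 and -2.89, a narrow range beside its wild-type levels of 3.06 to 5.35. Of the photosystem I antenna, LHCA2 and LHCA6 fell 2.58-fold and 2.70-fold (limma adjusted p = 0.000674 and 0.0285). LHCA1, LHCA3 and LHCA4 fell by less (1.46-, 1.78- and 1.78-fold), and LHCA5 had a log2 fold change of 0.05. The antenna count was 4 with normexp background correction, 8 with median centring and 8 without glk1 glk2 replicate 1, 10 without wild-type replicate 1 or GLK1-SRDX replicate 2, and 7 without wild-type replicate 2 or 4.

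Nuclear subunits of the photosystem cores, taken as all reference symbols of the PSA and PSB series, moved the same way. Of 23 tested genes 13 fell and 0 rose, with a median log2 fold change of -0.77. Pairs of genes that encode the same subunit were unequal here too. PSAE-2 fell 4.71-fold and PSAE-1 2.98-fold (limma adjusted p = 9.13e-06 and 0.000769). PSAD-2 fell 2.84-fold and PSAD-1 1.91-fold (0.00397 and 0.0093), and PSAH2 fell 3.67-fold and PSAH-1 3.08-fold (0.014 and 0.00333). PSBQ-2, of the oxygen-evolving complex, fell 5.50-fold (-2.46 ± 0.14 SE, limma adjusted p = 1.26e-05), while PSBQA had a log2 fold change of -0.63. PSBO1, PSBO2 and PSBR, also of that complex, did not pass (-0.31, -0.33 and 0.00). Of 12 genes of the magnesium branch of chlorophyll synthesis 3 fell, and 5 with the replicate block. PORA, a light-dependent protochlorophyllide reductase, had log2 levels of -5.24, -5.44, -6.23 and -5.59 in glk1 glk2, against -0.59, -0.80, -1.13 and 0.39 in wild type. Every mutant array was more than 4 log2 units below every wild-type array, and the fall was 34-fold (-5.09 ± 0.55 SE, limma adjusted p = 0.00104). Its relatives were less affected, with a 1.72-fold fall of PORB (limma adjusted p = 0.0374) and a log2 fold change of -0.42 for PORC, which did not pass. GUN4, an activator of magnesium chelatase, fell 2.62-fold (limma adjusted p = 0.0489). The count of 3 was 1 without any one of glk1 glk2 replicates 1 or 2, wild-type replicates 1, 2 or 4, or any GLK1-SRDX replicate.

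Genes that plants switch on when iron is short were lower in glk1 glk2. Of 15 tested members of that list 9 fell and 0 rose, the median log2 fold change was -2.65 and all 15 fitted values were below 0. The count was 7 with the replicate block, 5 without wild-type replicate 1 and 5 with normexp. The list holds the regulators BHLH38, BHLH39, BHLH100, BHLH101, PYE, BTS and MYB10, the uptake proteins IRT1 and FRO2, and enzymes and carriers of iron chelation and transport. BHLH100 (AT2G41240), a basic helix-loop-helix factor induced when iron is short, had log2 levels of -9.03, -9.50, -9.54 and -10.05 in glk1 glk2, against -0.18, -2.40, -3.19 and 0.19 in wild type. It was well above background on 0 mutant arrays and on 4 wild-type arrays. Its fall was at least 67.2-fold (limma adjusted p = 0.00101). The fitted change of BHLH100 was the largest of all tested loci, but it rests on mutant signals that were not well above background. LHCB1.4 (234-fold) and GLK2 (183-fold), above background on all 4 arrays of each group, fell by more than this bound.

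The related BHLH38 and BHLH101 fell as well. BHLH101 had log2 levels of -2.51, -3.34, -2.76 and -2.38 in glk1 glk2, against 1.00, -0.44, -0.50 and 1.71 in wild type (-3.19 ± 0.48 SE, 9.14-fold, limma adjusted p = 0.00763). BHLH38 fell at least 15.8-fold, being above background on 1 mutant array (limma adjusted p = 0.00852). BHLH39, adjacent to BHLH38 and close to it in sequence, did not pass (-2.65 ± 0.87 SE, limma adjusted p = 0.126). IRT1 (AT4G19690), the main iron transporter of the root surface, had -5.37, -6.73, -3.57 and -8.27 in glk1 glk2, against -0.97, -1.61, -1.78 and -1.31 in wild type. The mutant arrays were all lower but spread over almost 5 log2 units, and the fall was at least 22-fold with 3 mutant arrays above background (limma adjusted p = 0.0139, and 0.0514 with the replicate block). FRO2, the ferric reductase that works with IRT1, fell at least 15.1-fold (limma adjusted p = 0.00947), and NAS2, a nicotianamine synthase, at least 8.94-fold (limma adjusted p = 0.0112). CYP82C4, a cytochrome P450 induced by iron shortage, fell at least 3.24-fold (limma adjusted p = 0.0339), a call lost in 9 of 12 fits with 1 array left out. FRO3 and MYB10 fell 1.71-fold and 2.2-fold (limma adjusted p = 0.0313 and 0.0381). PYE, BTS, OPT3, NAS1 and NAS4 did not pass, with log2 fold changes of -0.36, -0.77, -0.69, -0.17 and -0.45.

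A few genes for iron storage and iron-sulfur proteins rose. Of 11 tested ferritin, vacuolar iron and iron-sulfur carrier genes 3 rose and 0 fell, with a median log2 fold change of 0.44. NEET (AT5G51720), an iron-sulfur protein of chloroplasts and mitochondria, had log2 levels of 5.05, 4.72, 3.98 and 5.26 in glk1 glk2, against 3.23, 3.25, 2.90 and 3.24 in wild type. All mutant arrays were higher, and the rise was 3.03-fold (1.6 ± 0.27 SE, limma adjusted p = 0.0134). FER4, a ferritin, had 1.1, 1.41, 1.19 and 1.11 in glk1 glk2, against 0.04, 0.66, 0.65 and 0.09 in wild type, a rise of 1.79-fold (limma adjusted p = 0.0151). FER1, a ferritin of chloroplasts, had 2.92, 3.47, 3.33 and 2.16 in glk1 glk2, against 1.53, 2.54, 2.16 and 0.69 in wild type. The groups overlapped for FER1, but its 4 same-numbered pairs differed by 1.39, 0.93, 1.17 and 1.47, and it passed only with the replicate block (limma adjusted p = 0.022, and 0.109 without it). NFU4, a mitochondrial iron-sulfur carrier, rose 1.2-fold (limma adjusted p = 0.0446, and 0.0691 with the block), a call lost in 11 of 12 fits with 1 array left out.

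IRT1 and FRO2 are expressed in roots, and root markers moved with these genes. Of 19 tested root markers 18 had a log2 fold change below 0, with a median of -1.15, but 0 passed with all arrays, 15 had an unadjusted limma p under 0.05, and 14 fell without glk1 glk2 replicate 3. Summed over the markers, the level was 8.94, 6.56, 14.9 and 4.01 times the 75th percentile on the glk1 glk2 arrays, against 14.6, 16.1, 13.4 and 10.7 on the wild-type arrays. NIP2-1 was well above background on 0 mutant arrays. The 8 tested xylem markers had a median of -0.60, with 0 passing, 5 passing downward with the replicate block and 7 without glk1 glk2 replicate 3, and sums of 1.77 to 4.15 in glk1 glk2 and 2.90 to 5.03 in wild type. The part of root and xylem tissue in these results was not tested, and in RNA of whole seedlings fewer cells of a type and less RNA per cell cannot be told apart. In replicate 3 the root markers had a median pair difference of 0.15, and glk1 glk2 was lower for BHLH100, BHLH38, BHLH101, NAS2 and CYP82C4. Their pair differences there were -6.35, -2.44, -2.26, -3.69 and -2.91, and those of IRT1 and FRO2 were -1.79 and -1.96. The iron list as a whole had median pair differences of -3.02, -1.97, -0.87 and -3.39 in replicates 1 to 4. Replicate 3 is 1 pair and holds the glk1 glk2 array that stood apart, and the genes named for it are only part of the list. No cause was tested with it.

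**Figure D3:**
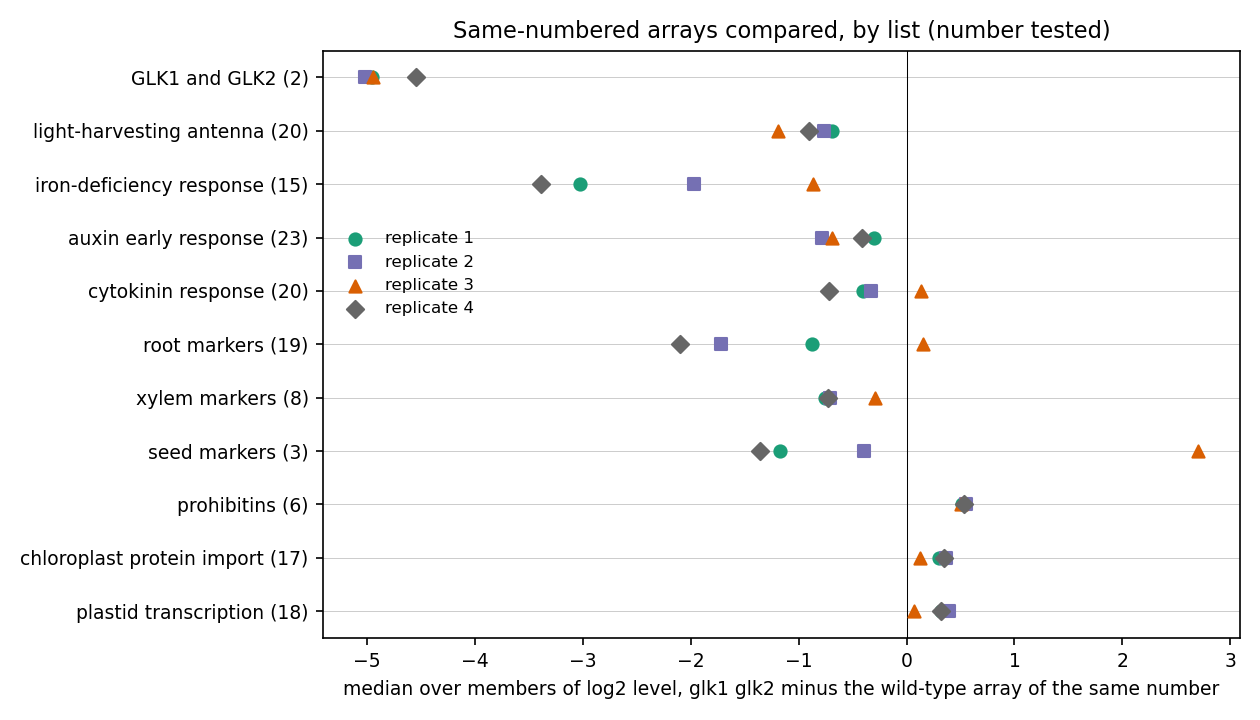
For each list (number of tested genes in brackets) the x axis gives the median over members of the log2 level in glk1 glk2 minus that of the same-numbered wild-type array, with 1 marker per replicate number. Root markers lie at -0.87, -1.72, 0.15 and -2.10 and seed markers reach 2.70 in replicate 3, while prohibitins lie between 0.51 and 0.55 in all 4 replicates.

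Other metal and nutrient lists held between 1 and 5 changed genes with all arrays. Of 19 copper genes 3 rose and 2 fell. Without glk1 glk2 replicate 3 these counts were 5 and 4, without glk1 glk2 replicate 1 they were 1 and 2, and without wild-type replicate 2 or 4 they were 1 and 1. Copper genes numbered 6 rises and 1 fall with median centring, and 0 and 1 with the series table. BCB, a blue copper-binding protein, had log2 levels of 5.40, 5.23, 5.16 and 5.12 in glk1 glk2, against 4.29, 4.03, 4.13 and 3.93 in wild type, and rose 2.19-fold (limma adjusted p = 0.0173). FSD1, an iron superoxide dismutase, had 5.52, 5.75, 5.26 and 5.65 in glk1 glk2, against 4.43, 4.70, 4.75 and 4.56 in wild type, and rose 1.91-fold (limma adjusted p = 0.00204). Both genes were higher on every mutant array. CSD2, the copper-zinc superoxide dismutase of chloroplasts, rose 1.44-fold (limma adjusted p = 0.0376). PETE1, a plastocyanin that carries electrons to photosystem I, fell 2.56-fold (-1.35 ± 0.15 SE, limma adjusted p = 0.00118), and the copper chaperone CCH fell 1.33-fold (limma adjusted p = 0.04). Of 20 zinc and manganese genes 1 fell: ZIP8 (AT5G45105), which the reference annotates as a transcribed pseudogene, by at least 7.64-fold (limma adjusted p = 0.00512, above background on 1 mutant array). Without glk1 glk2 replicate 3, 7 genes of that list fell. Nitrate, sulfate and phosphate lists of 20, 17 and 16 tested genes had 1 change each (5%, 5.88% and 6.25%). The zinc and manganese list also had 5%, and 3.25% of all tested loci changed. With 1 gene each, these counts are no result about the lists. AMT1.1, an ammonium transporter, rose 1.36-fold (limma adjusted p = 0.0188), SIR, the sulfite reductase of plastids, rose 1.47-fold (limma adjusted p = 0.00333), and PHO2 fell 1.63-fold (limma adjusted p = 0.0309, and 0.0538 with the replicate block). Without glk1 glk2 replicate 3, 3 nitrate genes rose and 3 fell, and the calls of AMT1.1 and PHO2 were kept in 9 and 5 of 12 fits with 1 array left out.

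The late steps of anthocyanin synthesis fell, and the early steps of flavonoid synthesis did not pass. Of 16 tested flavonoid genes 5 fell and 0 rose, and the 5 were DFR, LDOX, UF3GT, AT5MAT and TT19, of which 0 passed with normexp background correction. DFR (AT5G42800), dihydroflavonol reductase, had log2 levels of -6.87, -8.87, -8.61 and -7.56 in glk1 glk2, against -4.74, -3.90, -5.05 and -3.03 in wild type. Every mutant array was lower, and with 2 of them above background the fall was at least 8.50-fold (limma adjusted p = 0.00485). LDOX, which acts after DFR, fell at least 4.81-fold and was above background on 0 mutant arrays (limma adjusted p = 0.0029). The adjacent AT4G22870 also fell (6.995-fold, limma adjusted p = 0.00118), and whether the probes tell these neighbouring genes apart is uncertain. Of the decorating enzymes UF3GT fell at least 5.51-fold, and AT5MAT had a fitted fall of 5.98-fold (limma adjusted p = 0.00493 and 0.001). TT19, a glutathione transferase that carries anthocyanin, fell at least 8.80-fold (limma adjusted p = 0.00397). CHS, TT5, TT7 and FLS1, of the early steps, had log2 fold changes of 0.03, 0.04, 0.07 and 0.22. F3H rose with the replicate block (0.67, limma adjusted p = 0.0281, and 0.134 without it). PAP1 (AT1G56650), the MYB factor that switches on the late genes, had -7.48, -9.51, -9.55 and -4.99 in glk1 glk2, against -4.10, -5.55, -6.17 and -1.79 in wild type. The groups overlapped, the pair differences were -3.38, -3.96, -3.37 and -3.21, and PAP1 fell only with the block (limma adjusted p = 0.00536, and 0.12 without it).

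**Figure D4:**
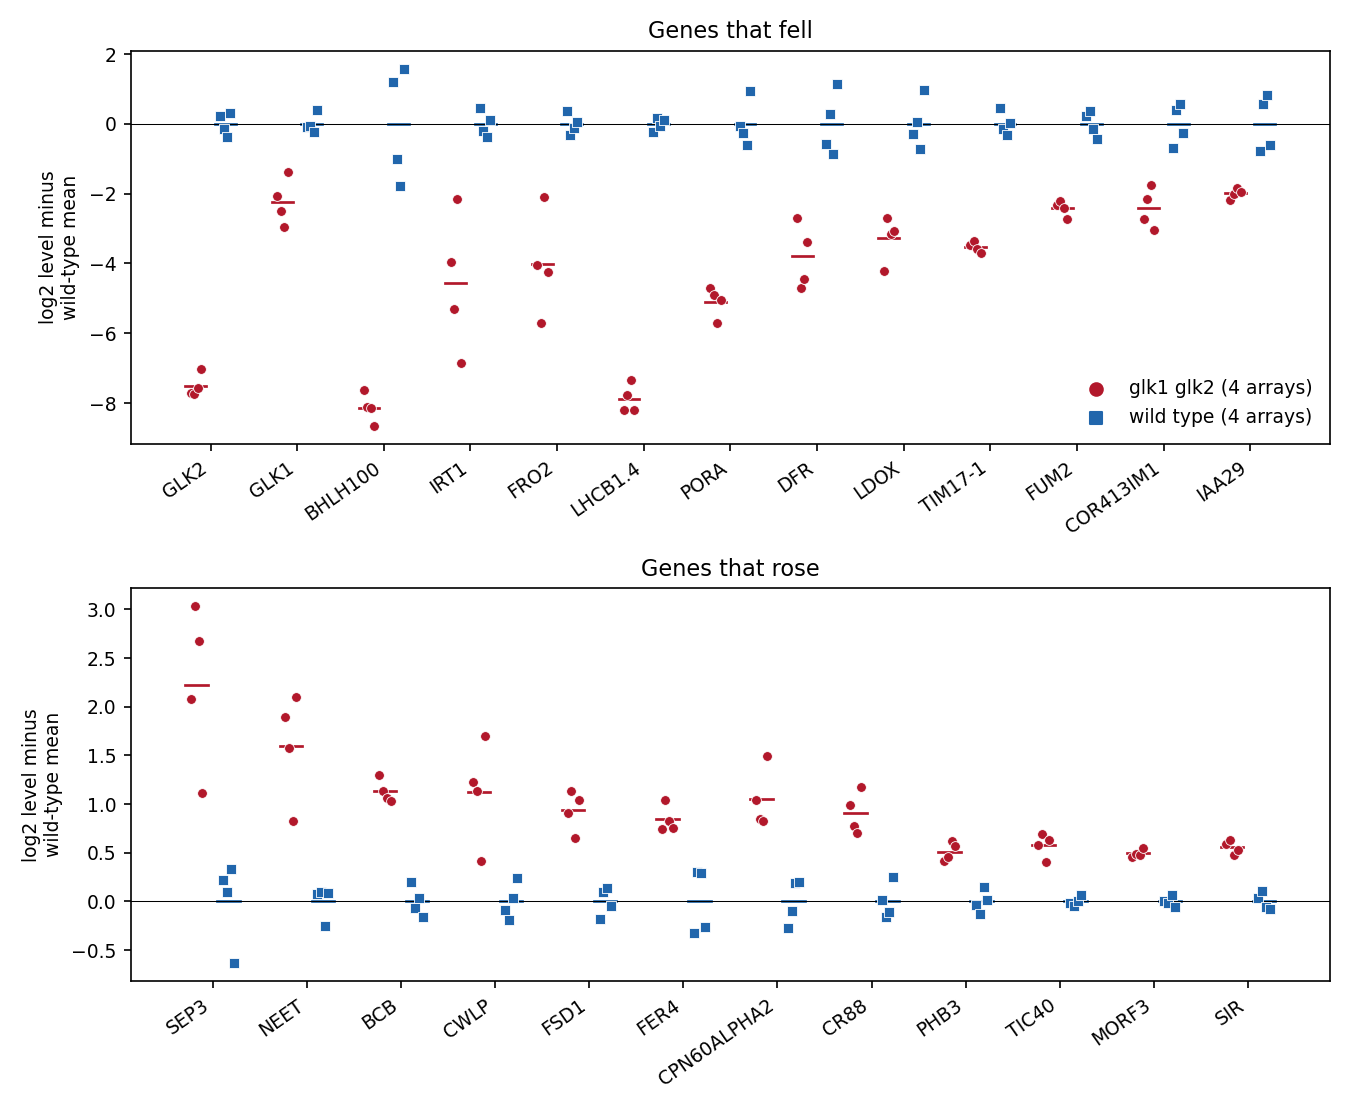
Log2 level of each array minus the wild-type mean of the gene (y axis), for genes that fell (upper panel) and rose (lower panel), with glk1 glk2 arrays as red circles left of wild-type arrays as blue squares and short bars at the means. All genes shown have 4 mutant arrays wholly below or wholly above the wild-type arrays.

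Of 14 tested genes of mitochondrial stress and alternative respiration 2 fell and 0 rose. TIM17-1 (AT1G20350), of the protein import channel of the inner mitochondrial membrane, had log2 levels of -5.51, -5.40, -5.64 and -5.74 in glk1 glk2, against -1.60, -2.20, -2.36 and -2.02 in wild type. FUM2 (AT5G50950), the cytosolic fumarase, had -0.04, 0.08, -0.14 and -0.45 in glk1 glk2, against 2.50, 2.64, 2.14 and 1.83 in wild type. Neither gene overlapped between groups. TIM17-1 fell 11.5-fold (-3.53 ± 0.23 SE, limma adjusted p = 2.48e-05) and FUM2 5.34-fold (-2.42 ± 0.23 SE, limma adjusted p = 0.000472). The other 12 tested genes of the list, among them the alternative oxidases AOX1A and AOX1D (0.09 and 0.37), did not pass. With the replicate block 1 of these 12 rose. Photorespiration, the recycling of the side product of carbon fixation, had 0 of 13 genes past the threshold with all arrays, while 6 rose without glk1 glk2 replicate 3 and 3 with quantile normalization. The 2 lowest p-values there had log2 fold changes above 0, and CAT2, the catalase of leaf peroxisomes, rose with the replicate block (0.86, limma adjusted p = 0.038, and 0.0517 without it).

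Growth and light signalling genes were lower in part. Of 23 early auxin genes 3 fell and 0 rose, with a median log2 fold change of -0.51 and 22 values below 0. IAA29 (AT4G32280), an auxin repressor that shade and phytochrome factors induce, had log2 levels of -2.92, -2.73, -2.56 and -2.68 in glk1 glk2, against -1.51, -0.16, 0.09 and -1.35 in wild type. The mutant arrays were alike and below all wild-type arrays, and the fall was 3.97-fold (limma adjusted p = 0.0302). IAA19 had -0.60, -1.38, -1.17 and -0.46 in glk1 glk2, against 0.19, 0.02, 0.46 and 0.68 in wild type, and fell 2.36-fold (limma adjusted p = 0.0165). IAA3 fell 1.54-fold (limma adjusted p = 0.0325, and 0.062 with the block). The auxin count was 1 without glk1 glk2 replicate 1, wild-type replicate 2 or wild-type replicate 3, and 5 without glk1 glk2 replicate 3. Root markers, given above, were lower beside these genes, and their part was not tested.

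Of 23 light and shade genes 4 fell and 0 rose. YUC2, a flavin monooxygenase of auxin synthesis, fell 2.21-fold (limma adjusted p = 0.0343), and FHL, which brings phytochrome A into the nucleus, fell 2.83-fold (limma adjusted p = 0.0152). HFR1, an atypical bHLH factor of light signalling, had -0.42, -0.38, -0.08 and -0.39 in glk1 glk2, against 0.26, 0.50, 0.53 and 0.28 in wild type, with no overlap and a 1.63-fold fall (limma adjusted p = 0.0168). COL1, related to the flowering regulator CONSTANS, fell 2.00-fold (limma adjusted p = 0.02). The photoreceptors PHYA and PHYB and the factor HY5 did not pass (-0.17, -0.04 and 0.31). The count was 1 without glk1 glk2 replicate 1 or 2 or wild-type replicate 1, 2 without wild-type replicate 2, and 7 without glk1 glk2 replicate 3. Of 19 gibberellin and brassinosteroid genes 2 fell (10.5%, beside 1.11% of all tested loci), GA20OX1 (1.96-fold, limma adjusted p = 0.0356, and 0.0918 with the block) and BEE1 (1.70-fold, limma adjusted p = 0.0499). That count was 5 without glk1 glk2 replicate 3, 1 without GLK1-SRDX replicate 1, and 0 without any other array but wild-type replicate 1. Of 20 cytokinin genes 0 passed with all arrays, with a median of -0.48 and 5 at an unadjusted p under 0.05, and 1 rose and 3 fell without glk1 glk2 replicate 3.

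Of 9 tested cold-regulated genes 3 fell and 0 rose. COR413IM1 (AT1G29395), a protein of the inner chloroplast envelope, had log2 levels of -0.93, -0.36, 0.04 and -1.24 in glk1 glk2, against 1.1, 2.18, 2.38 and 1.54 in wild type. COR15B, a chloroplast protein that protects membranes in the cold, had 0.07, -0.17, -0.32 and 0.45 in glk1 glk2, against 1.15, 1.43, 1.44 and 2.05 in wild type. Both were lower on every mutant array, by 5.36-fold and 2.85-fold (limma adjusted p = 0.00413 and 0.00401). COR47 fell 1.43-fold (limma adjusted p = 0.0476), a call kept in 1 of 12 fits with 1 array left out, and the other 6 cold genes did not pass. In the salicylate list of 16 genes 3 fell and 1 rose. EDS16, the isochorismate synthase that makes most salicylate, had -2.97, -2.77, -2.13 and -3.10 in glk1 glk2, against -1.41, -1.56, -1.73 and -1.23 in wild type, without overlap. It fell 2.40-fold (limma adjusted p = 0.00852), as did DMR6, a salicylate hydroxylase (2.2-fold, limma adjusted p = 0.00996), and EDS1 (1.42-fold, limma adjusted p = 0.04). With the replicate block these 3 did not pass (limma adjusted p = 0.0586, 0.0505 and 0.101), and the call of EDS1 was kept in 2 of 12 fits with 1 array left out, while PR5 and PBS3 rose beside WRKY28. WRKY28, a transcription factor, rose 1.93-fold (limma adjusted p = 0.0157, and 0.0263 with the block). The defence marker PR1 was above background on 0 mutant and 1 wild-type array.

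**Figure D5:**
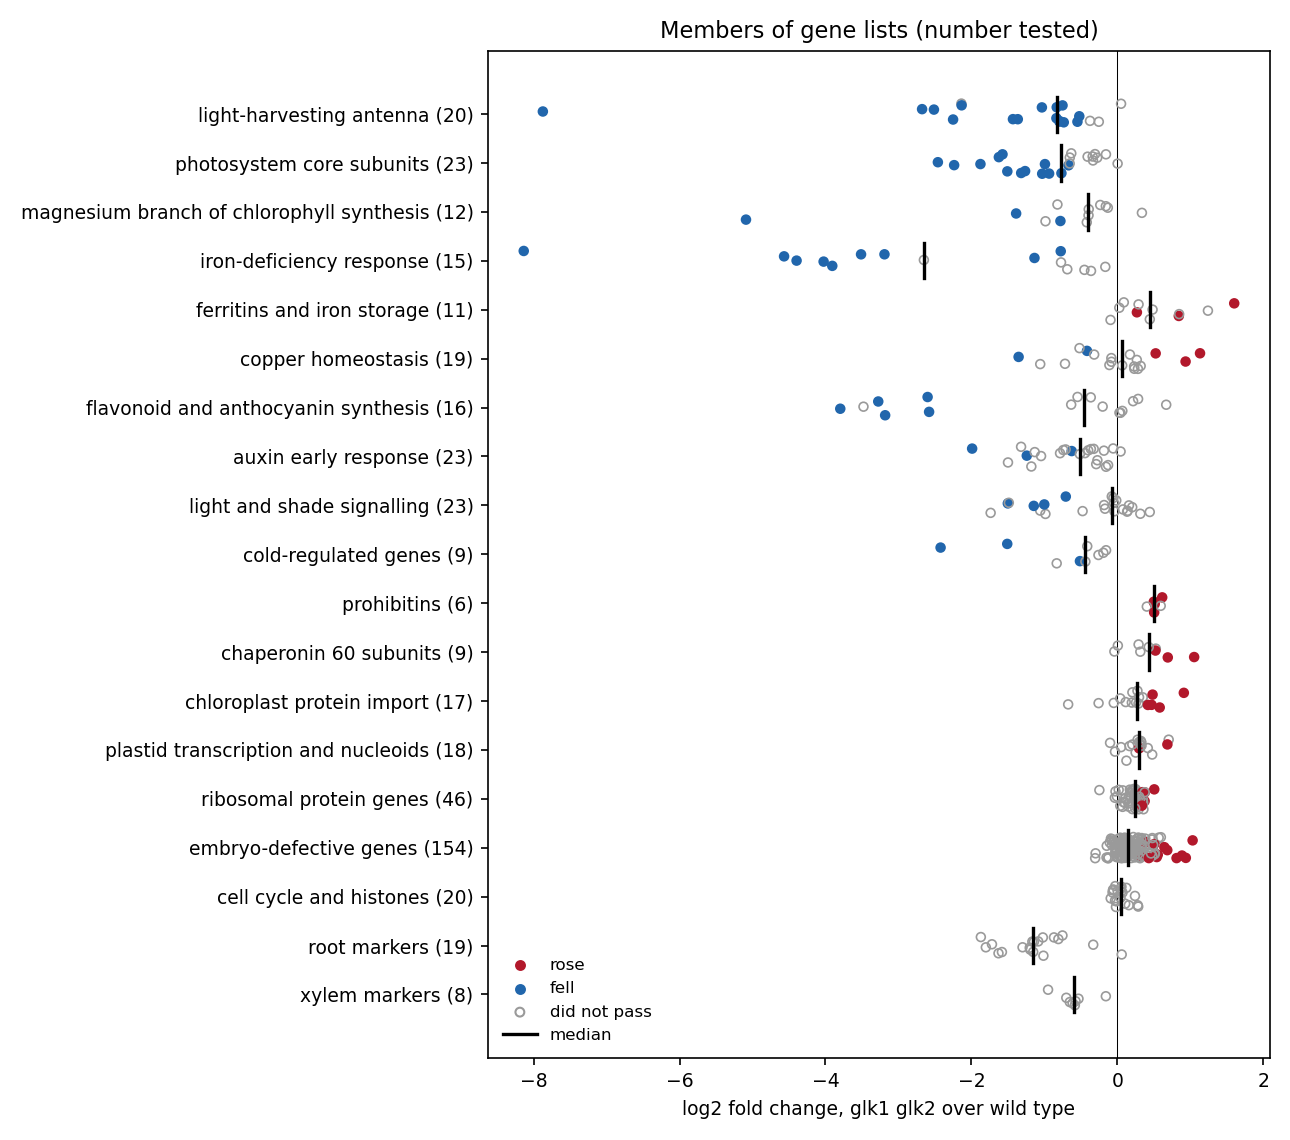
Log2 fold change of glk1 glk2 over wild type (x axis) for each tested member of 19 gene lists, with the number tested in brackets. Filled points passed the limma threshold, blue for falls and red for rises, open points did not, and black bars are list medians, from -2.65 for the iron-deficiency response to 0.51 for prohibitins.

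Several groups of genes that build and maintain chloroplasts and mitochondria held rises. Of 17 genes of chloroplast protein import 5 rose and 0 fell, with a median log2 fold change of 0.28. CR88, the HSP90 chaperone of chloroplasts, had log2 levels of 2.27, 2.05, 1.98 and 2.45 in glk1 glk2, against 1.29, 1.12, 1.17 and 1.53 in wild type. TIC40, of the inner envelope translocon, had 2.96, 3.07, 2.78 and 3.01 in glk1 glk2, against 2.36, 2.33, 2.38 and 2.44 in wild type. All mutant arrays were higher for both, by 1.88-fold and 1.49-fold (limma adjusted p = 0.00484 and 0.0026). TIC110, TOC64-III and the receptor TOC159 rose 1.4-, 1.34- and 1.38-fold (limma adjusted p = 0.0292, 0.0148 and 0.0373, and 0.0514 for TOC159 with the block). TIC62, which binds a stromal reductase, fell with the replicate block (-0.67, limma adjusted p = 0.0305, and 0.114 without it). With 1 array left out, the import count ran from 2 without wild-type replicate 1 or 2 to 9 without glk1 glk2 replicate 3. It was 3 without glk1 glk2 replicate 1, 2 or 4, wild-type replicate 3 or GLK1-SRDX replicate 2. The scaling matters too, since 4 of all tested loci rose with the series table, against 441 in the main fit.

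Prohibitins are scaffold proteins of the inner mitochondrial membrane. Of 6 tested genes 4 rose and 2 did not pass, all 6 were without overlap between groups, and all 6 rose with the replicate block. PHB3 (AT5G40770) had log2 levels of 2.15, 2.19, 2.35 and 2.31 in glk1 glk2, against 1.70, 1.61, 1.88 and 1.76 in wild type. PHB6 (AT2G20530) had 2.53, 2.64, 2.68 and 2.73 in glk1 glk2, against 2.05, 2.07, 2.34 and 2.11 in wild type. This gene is also among the tested loci that flank GLK1. PHB1, PHB2, PHB3 and PHB6 rose 1.53-, 1.41-, 1.43- and 1.42-fold (limma adjusted p = 0.0285, 0.0138, 0.00852 and 0.0101), and PHB4 and PHB7 had log2 fold changes of 0.40 and 0.59. The median of 0.51 was 0.70 with median centring, 0.45 with quantile normalization, 0.32 with the series table and 0.58 with normexp background correction. The count of rises was 2 without wild-type replicate 1, and 0 with the series table. Of 9 chaperonin 60 subunits, which fold proteins in plastids and mitochondria, 3 rose: CPN60ALPHA2 (2.07-fold, limma adjusted p = 0.00763) and CPN60B (1.61-fold, limma adjusted p = 0.042) of the plastid, and HSP60 (1.44-fold, limma adjusted p = 0.0353) of mitochondria. For CPN60B the groups overlapped. The chaperonin count was 1 without glk1 glk2 replicate 1 or 4, wild-type replicate 1 or 2 or GLK1-SRDX replicate 2 or 4, and 0 with normexp.

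Factors that process organelle RNA and plastid transcription gave small rises. Of 29 MEF, OTP, MORF and SLO genes, most of them needed for RNA editing in organelles, 7 rose (12 with the replicate block) and 0 fell. MORF3 (AT3G06790) had log2 levels of 0.36, 0.39, 0.37 and 0.45 in glk1 glk2, against -0.09, -0.12, -0.03 and -0.16 in wild type, with every mutant array above every wild-type array. It rose 1.41-fold (0.49 ± 0.06 SE, limma adjusted p = 0.00204), as did MORF6 (1.4-fold, limma adjusted p = 0.0156). The median of this list was 0.23, and -0.13 with normexp background correction, under which MEF3, OTP82, SLO1, MEF29 and OTP80 were below 0. The count of 7 was 3 without glk1 glk2 replicate 1 or GLK1-SRDX replicate 1 or 2, 2 without glk1 glk2 replicate 2 or 4 or wild-type replicate 2 or 4, and 1 without wild-type replicate 1. PDE340 (AT5G08610), named for a pigment defect of its mutant, had -0.26, -0.02, 0.00 and -0.07 in glk1 glk2, against -1.16, -1.19, -0.87 and -0.99 in wild type. The groups were clearly apart, and it rose 1.95-fold (0.96 ± 0.09 SE, limma adjusted p = 0.000615). Of 18 genes of plastid transcription 2 rose (11.1%), FLN1 (1.61-fold, limma adjusted p = 0.011) and PTAC6 (1.23-fold, limma adjusted p = 0.0341), and neither passed with the block (0.0505 and 0.0536). That count was 1 without glk1 glk2 replicate 1 or 2 or any wild-type or GLK1-SRDX replicate, and 9 without glk1 glk2 replicate 3. Plastid division had 1 rise among 14 genes, FTSZ2-1 (1.32-fold, limma adjusted p = 0.0374, and 0.0565 with the block). It makes up 7.14% of the list, beside 2.14% of all tested loci, and with 1 gene the count is no result about the list. The FTSZ2-1 call was kept in 2 of 12 fits with 1 array left out, and 6 plastid division genes rose without glk1 glk2 replicate 3.

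Genes named for embryo-defective mutants, many of which encode plastid proteins, included 13 rises and 0 falls among 154 tested, and 21 rises with the replicate block. The 13 are 8.44% of the list, beside 2.14% of all tested loci, of which 4.34% rose with the block. The median log2 fold change was 0.15, and -0.03 with the series table. EMB2729 (AT3G20440), EMB3120 (AT3G14900) and EMB3108 (AT1G59990) rose 2.04-, 1.92- and 1.85-fold (limma adjusted p = 0.0261, 0.00982 and 0.0164). Of 46 ribosomal protein genes 6 rose (13.0%) and 0 fell, all by less than 1.5-fold, with a median of 0.24. They were RPS15, RPL34, RPS5A, RPL3P, RPS15AD and RPS10B, and 0 passed with normexp or the series table. The embryo-defective count was 7 without glk1 glk2 replicate 1, 8 without replicate 2 and 39 without replicate 3, and 3 and 4 without wild-type replicates 1 and 2. The ribosomal count was 0 without glk1 glk2 replicate 1 or 2 or wild-type replicate 1 or 2, 1 without glk1 glk2 replicate 4, wild-type replicate 4 or GLK1-SRDX replicate 2 or 3, 2 without wild-type replicate 3 or GLK1-SRDX replicate 4, 3 without GLK1-SRDX replicate 1 and 14 without glk1 glk2 replicate 3.

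Of the rises with a symbol, SEP3 had the largest fitted change, followed by NEET, MEE3, BCB and CWLP. SEP3 (AT1G24260), a MADS-box factor of flower development, had log2 levels of -0.71, 0.24, -0.11 and -1.68 in glk1 glk2, against -2.57, -2.70, -2.46 and -3.43 in wild type. The lowest mutant array was above the highest wild-type array, and the rise was 4.67-fold (2.22 ± 0.42 SE, limma adjusted p = 0.02). The call was lost without glk1 glk2 replicate 1 or 2 or wild-type replicate 1, 2 or 4 (limma adjusted p = 0.0544 to 0.0585). Of 7 tested flower markers SEP3 alone passed, and PI rose with the block (0.94, limma adjusted p = 0.0368), while AP1, LFY and FUL had 0.43, 0.42 and 0.72. In that list 6 log2 fold changes were above 0 and 1 was below it, at -1.33. CWLP, a cell wall linker protein, had 4.04, 3.95, 3.23 and 4.52 in glk1 glk2, against 2.73, 2.63, 2.85 and 3.06 in wild type, and rose 2.17-fold (limma adjusted p = 0.0238). NRPD4, a subunit of the RNA polymerases IV and V that direct DNA methylation, rose at least 2.06-fold, with 2 wild-type arrays above background (limma adjusted p = 0.00656), and its sign turned under normexp. The other 19 silencing genes did not pass. MEE3, a RADIALIS-like MYB factor, rose 2.58-fold (limma adjusted p = 0.0339, and 0.0629 with the block), a call kept in 4 of 12 fits with 1 array left out, and its sign also turned under normexp. CS26, a plastid cysteine synthase, and BAM4, a plastid protein related to beta-amylases, both rose 1.89-fold (limma adjusted p = 0.00739 and 0.00852). ETC2, a repressor of trichome formation, rose 1.98-fold (limma adjusted p = 0.0398), a call lost in 11 of 12 fits with 1 array left out.

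Of 27 arabinogalactan proteins, glycoproteins of the cell surface, 3 fell and 0 rose: AGP9, AGP27 and AGP41, by 1.41-, 1.63- and 1.6-fold (limma adjusted p = 0.0326, 0.0456 and 0.0156). AGP27 and AGP41 did not pass with the replicate block (limma adjusted p = 0.0899 and 0.0536). The median was -0.30, and 11.1% of the list fell, beside 1.11% of all tested loci. The count was 9 without glk1 glk2 replicate 3, 0 without wild-type replicate 2, and 1 without glk1 glk2 replicate 1, 2 or 4, wild-type replicate 1 or 3 or GLK1-SRDX replicate 2, 3 or 4.

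Among loci with no symbol in the reference table, the falls were again larger than the rises. AT1G14250 had log2 levels of -7.46, -6.98, -7.66 and -7.36 in glk1 glk2, against -0.87, -1.49, -2.21 and -0.22 in wild type. With 2 mutant arrays above background it fell at least 66.7-fold (limma adjusted p = 2.30e-05). AT5G35480 and AT2G14247 fell at least 48.7-fold and 35.8-fold (limma adjusted p = 8.33e-05 and 0.0188). AT5G55690, which lies beside BAM4, had -4.46, -3.87, -4.46 and -5.54 in glk1 glk2, against -8.85, -8.38, -7.96 and -8.53 in wild type. It was above background on all 4 mutant arrays and 0 wild-type arrays, and rose at least 6.38-fold (limma adjusted p = 0.00227). AT3G49160 rose 2.34-fold (limma adjusted p = 0.00496). AT5G45460 rose at least 1.54-fold (limma adjusted p = 0.0497), and its sign turned under normexp. In 5 cases neighbours in the tested order both fell at least 2-fold: AT1G14240 with AT1G14250, AT1G33710 with CYP76C6, AT3G16120 with PSAH-1, AT4G22870 with LDOX, and AT5G35480 with MRU1.

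Many lists held 0 loci past the threshold with all arrays. These were 17 aliphatic and 14 indole glucosinolate genes, 15 lignin genes, 17 plastid lipid genes, 18 cuticle genes, 13 heat shock, 16 ER folding and 13 hypoxia genes, 20 ethylene genes, 21 early immune factors, 20 cell cycle genes, 20 cellulose and expansin genes and 19 genes of the NDH complex and cyclic electron flow. Their unadjusted limma p was under 0.05 for 0, 1, 3, 6, 1, 3, 3, 2, 2, 0, 0, 2 and 1 genes in that order, and 0 or 1 of each list changed under any other normalization, except for 3 ER folding genes that rose with median centring. Without glk1 glk2 replicate 3, 9 plastid lipid genes rose and 3 lignin genes fell. The cell cycle list had log2 fold changes of -0.09 to 0.29. Guard cell, epidermis and phloem markers, of 11, 9 and 6 tested genes, also had 0 past the threshold (1, 0 and 0 at an unadjusted p under 0.05), with medians of 0.10, 0.00 and -0.11. Of the 11 guard cell genes 7 had a log2 fold change above 0 and 4 below it. With the replicate block 1 of them rose and 1 fell. The fall was of KAT1, a potassium channel (-0.80, limma adjusted p = 0.045, and 0.157 without the block). The 3 tested seed markers had a median pair difference of 2.70 in replicate 3 and of -1.18, -0.39 and -1.36 in replicates 1, 2 and 4. Their summed level was 0.06, 0.065, 1.11 and 0.0246 times the 75th percentile in glk1 glk2, against 0.227, 0.0676, 0.0493 and 0.0871 in wild type, highest in glk1 glk2 replicate 3. The 5 reference genes did not pass, with a median of 0.14.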

How the data were processed

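Total RNA of whole seedlings was measured on 12 one-colour arrays, 4 of each genotype by title. The scanner intensities were deposited as Agilent Feature Extraction 9.1.3.1 output, per the file headers, and the processed intensity is background-subtracted within each array. The deposited series table held the same intensities divided by a constant per genotype (column medians of 0.0798 to 0.168), linear and not centred per gene, as its comparison with the scanner values showed. Processed intensity was converted here to log2 minus the 75th percentile of each array. Outlier spots were left out, repeated spots were averaged and the brightest probe represented a locus. Probes had to be well above background on 4 or more arrays, and free of outlier marks on 3 or more arrays per group. Of 25665 loci on the array 20640 were tested, 20169 of them by 1 kept probe. limma 3.58.1 in R 4.3.3 was fitted to all 12 arrays with 9 residual degrees of freedom, and its two-sided p-values were adjusted by Benjamini-Hochberg across the 20640 loci. The script was tested on simulated data.

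A fold is given as a lower bound if any array of the dimmer group failed the background test. Each dimmer array then takes its own signal or, if higher, the smallest signal that passed that test on it. An array that failed the test can lie above that smallest signal, so the bounds are approximate. For UNE15 and AT5MAT this step left the fitted fold unchanged, and their folds are given as fitted values. Same-numbered arrays had correlated deviations from their group means (0.319, 0.383, 0.464 and 0.757 over 20533 loci). Arrays of unlike number gave -0.578 to 0.295. The main fit holds no block, and a fit with the replicate number as a block was run as an alternative. Symbols were looked up in RefSeq's TAIR10.1 gene table, where 20521 tested loci were found and 9080 had a symbol. The members and lists were chosen with earlier results of these data known, and 14 lists were added after values were seen. By rule the named genes were GLK1 and GLK2, the 15 largest rises and falls with a symbol and no overlap, up to 3 passing members of each of 36 lists (or the one with the smallest p), and the 3 largest rises and falls without a symbol. Other genes named in the text were chosen after their values were seen, among them members of the added lists. Alternatives were other background correction, scaling, filters, probe rules, blocks and arrays left out. The scanner files held no mean signal, so normexp (offset 50) was run on the median signal.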

Additional observations from a re-analysis of the deposited data

Results flagged for a closer look

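In 17 of the 286 groups of 4 arrays examined for the named genes, 1 array stood apart from the other 3 by Dixon's test, and chance gives about 1 in 20 groups. Of the 17, 6 were glk1 glk2 replicate 3, 3 were glk1 glk2 replicate 4, 4 were wild-type replicate 3, 3 were wild-type replicate 4 and 1 was wild-type replicate 1. In glk1 glk2 replicate 3 the log2 level was higher than in the other 3 mutant arrays for CYP82C4 (-8.37) and HFR1 (-0.079). It was lower there for CAT2 (4.93), SWEET11 (0.54), PORB (3.68) and PSAK (6.15). In glk1 glk2 replicate 4 the level was higher for EMB2729 (-0.99) and AT5MAT (-6.71) and lower for AGP27 (-6.44). In wild-type replicate 3 it was higher for MEF3 (-4.73) and MEF29 (-2.67) and lower for NEET (2.90) and PETE1 (4.78). In wild-type replicate 4 it was higher for ETC2 (-2.43) and TIC110 (3.09) and lower for PTAC6 (1.99), and in wild-type replicate 1 it was higher for EM1 (-5.24).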

How the results depend on the processing

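Of 671 changed loci and 132 changed at least 2-fold, the counts were 145 and 58 with normexp background correction, 136 and 119 with the series table, 111 and 69 with only the 2 groups in the fit, 64 and 48 with slide as a block, 20 and 20 within slide 1 and 0 and 0 within slide 2. Median centring gave 1944 and 171, the replicate block 1365 and 170, and no filter on dim probes 443 and 125. Leaving out 1 array gave 229 to 3177 changed loci and 94 to 858 changed at least 2-fold. Leaving out both arrays of 1 replicate number, an alternative chosen after seeing the data, gave 54, 101, 1738 and 225 changed loci and 46, 64, 409 and 92 changed at least 2-fold for numbers 1 to 4. Under normexp the sign turned for MEE3 (-0.35), NRPD4 (-0.55), AT5G45460 (-0.64), EM1 (-0.58), MEF3 (-0.35), OTP82 (-0.082), SLO1 (-0.048), MEF29 (-0.13) and OTP80 (-0.38), and for 0 of the 143 named genes under any other alternative run. Of 121 named genes that passed, 57 did so in all 12 fits with 1 array left out, and 20 did not pass with the replicate block. The cause was not tested. Signal over background limits the falls, since 30 of 230 were not above it on every mutant array.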

Other observations

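Probes that carry no locus were fitted apart. Of 4170 such probes tested 24 changed in glk1 glk2 (0.576%), with 4 rises and 20 falls. The largest fall was -3.54 ± 0.63 SE on the log2 scale (limma adjusted p = 0.0279) and the largest rise 1.29 ± 0.18 SE (limma adjusted p = 0.00546).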
